A study of Danio rerio with 12 samples.

Results

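The transcripts of 36 hpf glucocorticoid receptor (GR) morphants were compared with those of mispair controls that were younger, at 24 hpf (hours post fertilization). The comparison used 6 of the 12 arrays of the series, chosen by sample title, with 3 arrays labelled MO at 36 hpf and 3 labelled MP at 24 hpf. It asked which genes were at the younger controls' level in the older morphants, as a delay in development would leave them, and which still differed. Each array held RNA of a pool of 25 whole zebrafish embryos, which had been injected at the single-cell stage with 4.4 ng of oligonucleotide in 1 nL. The MO embryos received a morpholino directed at the start of translation of the GR mRNA, and the MP embryos received a control oligonucleotide of the same dose that differs by design at some bases. By the sample labels the experiment was repeated for independent replicates. The 3 MP arrays at 36 hpf are also tested against both groups and help to define the gene classes described below. The 3 MO arrays at 24 hpf are used to set values side by side. All 12 arrays enter the choice of the probes for scaling and of the probe for each gene.

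GR is a cytosolic receptor for cortisol that moves to the nucleus when it binds the hormone and regulates transcription there. In the zebrafish embryo, cortisol and GR mRNA are supplied by the mother before the embryo makes its own. The hours between 24 and 36 hpf follow the end of segmentation, when the trunk musculature matures, lens fibre cells fill with crystallins, and neurons assemble synapses. A morpholino blocks translation and leaves the mRNA in place, so the mRNA of its target does not report how well it worked.

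The morpholino, as the sample labels print it, is shown because the groups are defined by it, and capitals mark the complement of the start codon, which begins at base 19 of 25 from its 5′ end. Its target gene, nr3c1, lies on chromosome 14.
GR morpholino: ctccagtcctccttgatcCATtttg
The labels give the same bases for the mispair oligonucleotide. The paper gives it a sequence that is not of equal length, so which bases the MP embryos received is not known here. A pool of embryos mixes all cell types, and fewer cells of a type and less RNA per cell cannot be told apart in it.

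The comparison crosses treatment, hours and scanning. All 24 hpf arrays were scanned in 1 session on slides 1 to 3 and all 36 hpf arrays in another on slides 4 to 6, so treatment, hours and session cannot be told apart in any difference between the MO 36 hpf and MP 24 hpf arrays. The median probe intensity was 106, 35.8 and 80.9 on the MO 36 hpf arrays and 172, 133 and 136 on the MP 24 hpf arrays. The share of probes well above background was 66.0 to 70.7% on the MO 36 hpf arrays and 80.4 to 82.3% on the MP 24 hpf arrays. Intensities were divided by each array's median over 19098 probes above 50 on every array, and the log2 of that ratio is called expression below. A change is the mean expression of the MO 36 hpf arrays minus that of the MP 24 hpf arrays. Directions here follow the sample titles and oppose those printed by the study, which gives as higher in morphants, also by PCR on other pools, genes such as pomca that are lower on the 36 hpf arrays titled morpholino. The arrays do not show whether titles or printed directions are exchanged. If the titles were, the MO and MP names would change places in every statement, so MO, morphant, MP and control mean here what the titles say.

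MO 36 hpf replicate 2, the dimmest array, stood apart from the other 2 MO 36 hpf arrays. Correlations of expression over 9183 genes were 0.943 to 0.988 among the MO 36 hpf arrays and 0.992 to 0.998 among the MP 24 hpf arrays. Expression of hsp70l, a heat-inducible chaperone, was 1.15, 7.85 and 0.65 on the MO 36 hpf arrays, against -0.31, -0.18 and -0.18 on the MP 24 hpf arrays. Expression of cited2, a transcriptional co-regulator, was 1.70, 5.72 and 1.94 on the MO 36 hpf arrays, against 1.98, 1.86 and 2.26 on the MP 24 hpf arrays. In both genes replicate 2 alone was far above all other arrays of the comparison. Counts of the main results and of many gene groups are therefore given with and without it. Of the named genes, 65 were changed, all 65 were also changed without it, and their changes then differed by -0.62 to 0.44.

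The receptor gene nr3c1 itself had an expression of -0.30, -0.09 and -0.25 on the MO 36 hpf arrays, against -0.52, -0.59 and -0.39 on the MP 24 hpf arrays. The morphant values lay slightly above the control values without overlap. The change was 0.28 (SE 0.16, adjusted p = 0.307, limma with Benjamini-Hochberg adjustment) and 0.22 without MO replicate 2.

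Of 10259 genes tested, 187 were significantly changed in the 36 hpf morphants relative to the 24 hpf controls (adjusted p under 0.05, 1.82%), of which 120 were higher (1.17%) and 67 lower (0.653%). Of the same genes, 6372 (62.1%) were within 2-fold, meaning that the 90% confidence interval of the change lay between -1 and 1 on the log2 scale. Without MO replicate 2, 7807 genes (76.3%) were within 2-fold. On all 6 arrays the median change was -0.06 over all genes and 1.41 in size over the changed genes, and 111 genes were at least 2-fold higher and 50 at least 2-fold lower. The number of calls depended on single arrays. Without MO replicate 2 it was 2274 (22.2%), and 186 of the 187 genes were among them. Without MO replicate 1 it was 670, and without MO replicate 3 or any 1 of the MP 24 hpf arrays it was 0, with 1363 to 2040 genes at an unadjusted p under 0.05, although at least 186 of the 187 changes kept their sign each time. On all 6 arrays 2643 genes had an unadjusted p under 0.05, and the methods' t-test on log2 values called 4 after adjustment. The share of calls that were higher was 64.2%, against 76.4% with normexp background correction, 45.5% with the floor set after scaling and 1.45% with scaling to the positive control spots, which moved the median change of all genes to -1.43.

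Other pairs of groups supply a scale on which these numbers can be read, of which the study tested the groups of 36 hpf and made no test between ages. In the mispair controls 3151 of 10302 genes (30.6%) changed between 24 and 36 hpf. Between the MO and MP arrays of 36 hpf 635 of 9888 (6.42%) did, and 1125 genes without MO replicate 2. Within 2-fold were 71.2% of genes between the ages of the controls and 58.8% between the groups of 36 hpf. The first of these shares the 3 MP 24 hpf arrays with the main comparison and the second shares the 3 MO 36 hpf arrays. The median SE of a change was 0.25 in the main comparison and 0.18 between the ages of the controls.

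To describe where the 36 hpf morphants stood in development, genes were taken that changed at least 2-fold in the controls between 24 and 36 hpf. There were 938 of them among 9837 genes tested in all comparisons (9.54%), 579 rising and 359 falling with age, and they are called developmental genes here. The median change of the rising genes was 0.26 in the 36 hpf morphants relative to the 24 hpf controls, 1.41 in the 36 hpf controls relative to the same arrays, and -1.25 between morphants and controls of 36 hpf. For the falling genes the medians were -0.36, -1.27 and 0.98. Without MO replicate 2 the medians of the morphants relative to the 24 hpf controls were 0.37 and -0.60. The 36 hpf morphants thus lay nearer the 24 hpf than the 36 hpf controls for the typical gene of both kinds. Both sets were chosen on the MP arrays, so the controls' own values are the rule and not a result. The same arrays set both ends of the scale, so this choice can also shift the place of the morphants on it. How far it did was not tested.

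Each morphant array was also placed between the means of the controls, in percent of the way from the 24 hpf mean (0%) to the 36 hpf mean of each gene, and the median over genes was taken. The rising genes placed MO 36 hpf replicates 1, 2 and 3 at 25.2%, 7.99% and 22.4%. The falling genes placed them at 42.2%, -7.40% and 39.9%. Replicates 1 and 3 were close to each other on both sets, and replicate 2 lay at the younger end of both. The MO 24 hpf arrays lay at -44.6 to -46.8% on the rising genes and at -22.0 to -28.9% on the falling genes, below the 24 hpf controls on every array. Gene by gene the position was spread widely. On MO 36 hpf replicate 1, 632 of 934 genes (67.7%) were nearer the 24 hpf than the 36 hpf control mean, and on replicates 2 and 3 the shares were 72.3% and 65.2%. On all 3 arrays at once 475 of 929 genes (51.1%) were nearer the 24 hpf mean and 128 (13.8%) were on none.

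**Figure D1:**
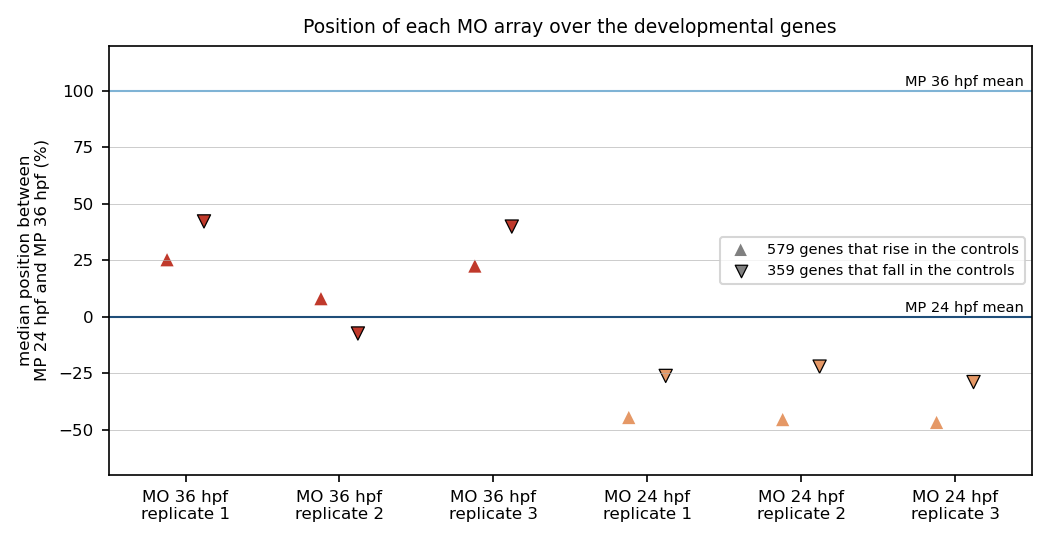
Position of each morphant array between the mispair controls, in percent of the way from the MP 24 hpf mean (0%) to the MP 36 hpf mean (the upper line), as the median over rising and over falling developmental genes, with the MO 36 hpf arrays first. MO 36 hpf replicates 1 and 3 lie at 22.4 to 42.2% and replicate 2 at -7.40 to 7.99%, while all MO 24 hpf arrays lie below 0%.

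Of the 938 developmental genes, 340 (36.2%) were within 2-fold of the 24 hpf controls in the 36 hpf morphants, 215 of the rising (37.1%) and 125 of the falling ones (34.8%). Over all genes tested the share within 2-fold of the 24 hpf controls was 62.1%, and the difference between the shares was not tested. These are called held at the 24 hpf level, which does not itself set them apart from the 36 hpf controls. Of the held genes, 152 rising and 34 falling ones were also changed between the MO and MP arrays of 36 hpf. Of all developmental genes 267 of 579 rising and 72 of 359 falling ones were, against 6.42% of all genes. Held genes lie near controls that differ at least 2-fold from the 36 hpf controls, so the rule favours these calls. Without MO replicate 2 the number held at the 24 hpf level was 490, and 193 of the 340 were within 2-fold with each of the arrays left out in turn. Just inside the limit stood foxd5, with a change of 0.37 (90% interval -0.26 to 1.00), and just outside it celf3a, with 0.63 (0.25 to 1.00). A narrower rule was met by 30 developmental genes (3.2%), 20 rising (3.45%) and 10 falling (2.79%), and by 177 without MO replicate 2. They were changed from the 24 hpf controls in the direction of development and within 2-fold of the 36 hpf controls. This rule asks for a call, which 56 developmental genes had in that direction, so the 30 and the 340 are not counts by like rules. Developmental genes within 2-fold of the 36 hpf controls whether called or not were not counted. A single gene, bcl11aa, a zinc finger transcription factor of neural and blood cells, changed against the direction of development (0.107%), and it is named because the count is 1. Its expression was -4.21, -4.68 and -4.58 on the MO 36 hpf arrays and -3.04, -3.28 and -3.03 on the MP 24 hpf arrays, against a rise of 1.18 in the controls. The changes of morphants and controls subtract the same MP 24 hpf arrays, whose spread moves both the same way. A low count of opposite changes is thus favoured by the design. The remaining developmental genes met none of these rules, which does not place them between the levels of the younger and older controls.

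The held genes with the largest rise in the controls included 3 lens genes, crygm2b, cryba1l2 and lim2.4. Held genes were not typical of the lens, since 5 of 26 developmental genes of the lens list were held, against 36.2% of all developmental genes. Expression of crygm2b, a gamma-crystallin of the lens fibre, was -2.67, -4.00 and -2.76 on the MO 36 hpf arrays, against -3.25, -3.53 and -3.21 on the MP 24 hpf arrays. The 3 MP 36 hpf arrays read 2.5, 2.83 and 1.92. The level in the older controls was 5.75 above that in the younger ones on the log2 scale. The change in the morphants was 0.19 (90% interval -0.51 to 0.89). Only replicate 2 reached down to the MP 24 hpf values, and without it the change was 0.61 (adjusted p = 0.0495, limma), still within 2-fold. Expression of cryba1l2, a beta-crystallin, was -0.62, -1.21 and -0.64 on the MO 36 hpf arrays, against -1.08, -1.12 and -0.89 on the MP 24 hpf arrays, and rose by 2.82 in the controls. For lim2.4, which by name encodes a lens fibre membrane protein, the morphant values of -0.46, -0.86 and -0.93 lay just above the MP 24 hpf values of -1.33, -1.08 and -1.14, with a change of 0.43 (90% interval 0.06 to 0.80) against 2.98 in the controls.

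The other named genes of this kind were dhrs7cb, tfap2d and fbxo40.2. Expression of dhrs7cb, a short-chain dehydrogenase gene, was -1.83, -2.46 and -1.73 on the MO 36 hpf arrays, against -2.37, -2.19 and -2.58 on the MP 24 hpf arrays, and 0.79, 0.46 and 1.12 on the MP 36 hpf arrays. Expression of tfap2d, an AP-2 family transcription factor, was -3.34, -2.10 and -3.05 on the MO 36 hpf arrays, against -2.88, -3.16 and -2.92 on the MP 24 hpf arrays, and rose by 2.69 in the controls. In tfap2d the morphant and the younger control values overlapped. In dhrs7cb they did so only through MO replicate 2, without which the change was 0.60 (adjusted p = 0.0440), within 2-fold. The muscle F-box gene fbxo40.2 changed by -0.02 in the morphants (90% interval -0.67 to 0.62) and by 2.58 in the controls, and was above background on 1 of the 3 MO 36 hpf arrays only.

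The named genes that fell with age in the controls and were held in the morphants began with znfl1b and included sp5l. Expression of sp5l, a transcription factor that acts downstream of Wnt signals in the early mesoderm, was -0.38, 0.65 and -0.51 on the MO 36 hpf arrays, against -0.30, -0.18 and -0.42 on the MP 24 hpf arrays, and -2.69, -2.57 and -1.84 on the MP 36 hpf arrays. Its change of 0.22 (90% interval -0.36 to 0.81) compares with a fall of 2.07 in the controls. Expression of znfl1b, a zinc finger gene, was 0.92, 1.2 and 0.79 on the MO 36 hpf arrays, against 1.73, 1.43 and 1.38 on the MP 24 hpf arrays. That is a change of -0.54, or -0.66 without MO replicate 2 (adjusted p = 0.020), where the controls fell by 2.77. The others were znfl2a, optc, which encodes the extracellular matrix protein opticin, gbp1, a guanylate-binding protein, and bco2l, a carotenoid oxygenase, with changes of -0.43 to -0.01 in the morphants and of -2.12 to -2.02 in the controls. On MO replicate 2, bco2l read -1.17, against -3.22 and -2.69 on the other MO 36 hpf arrays.

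The rule for the level of the older controls, which also asks for a call from the 24 hpf controls, was met by few genes. Among them nrxn3b, which encodes a presynaptic adhesion protein of the neurexin family, was 2.15, 3.10 and 2.82 on the MO 36 hpf arrays, against -0.35, -0.59 and -0.66 on the MP 24 hpf arrays, and 2.64, 2.85 and 3.23 on the MP 36 hpf arrays. Its rise of 3.22 (SE 0.26, adjusted p = 0.0252) stood beside one of 3.44 in the controls. Expression of osr2, a transcription factor of the odd-skipped family, was 6.17, 6.08 and 5.86 on the MO 36 hpf arrays, against 4.60, 4.47 and 4.40 on the MP 24 hpf arrays. It rose by 1.55 in the morphants and 1.98 in the controls. Expression of neurl1aa, a neuralized-family ubiquitin ligase, rose by 2.02 in the morphants and 2.07 in the controls, that of scfd2 by 2.35 and 2.21, that of klhl20 by 1.65 and 1.73, and that of nbeaa, a neurobeachin gene, by 1.23 and 1.67. When the probe with the smallest change stood for each gene, nrxn3b, scfd2, klhl20 and nbeaa had changes of -0.76 to -0.09, so another probe of each gene did not show its rise.

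Of the falling genes at the older level, 6 are named. Expression of uros, an enzyme of heme synthesis, was -3.99, -4.31 and -4.22 on the MO 36 hpf arrays, against -2.85, -2.85 and -2.90 on the MP 24 hpf arrays, and -4.02, -4.21 and -4.12 on the MP 36 hpf arrays. The morphant and older control values overlapped. It fell by 1.31 (SE 0.21, adjusted p = 0.0400) in the morphants. Expression of decr1, an enzyme of fatty acid oxidation, fell by 1.68 (adjusted p = 0.0414), with -2.38, -3.38 and -2.49 on the MO 36 hpf arrays and -1.11, -0.95 and -1.15 on the MP 24 hpf arrays. For purbb, slc10a4, mtrf1 and cstf3, a cleavage stimulation factor of mRNA 3′ ends, the morphants' changes were -1.39 to -1.04 and the controls' -1.50 to -1.29.

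**Figure D2:**
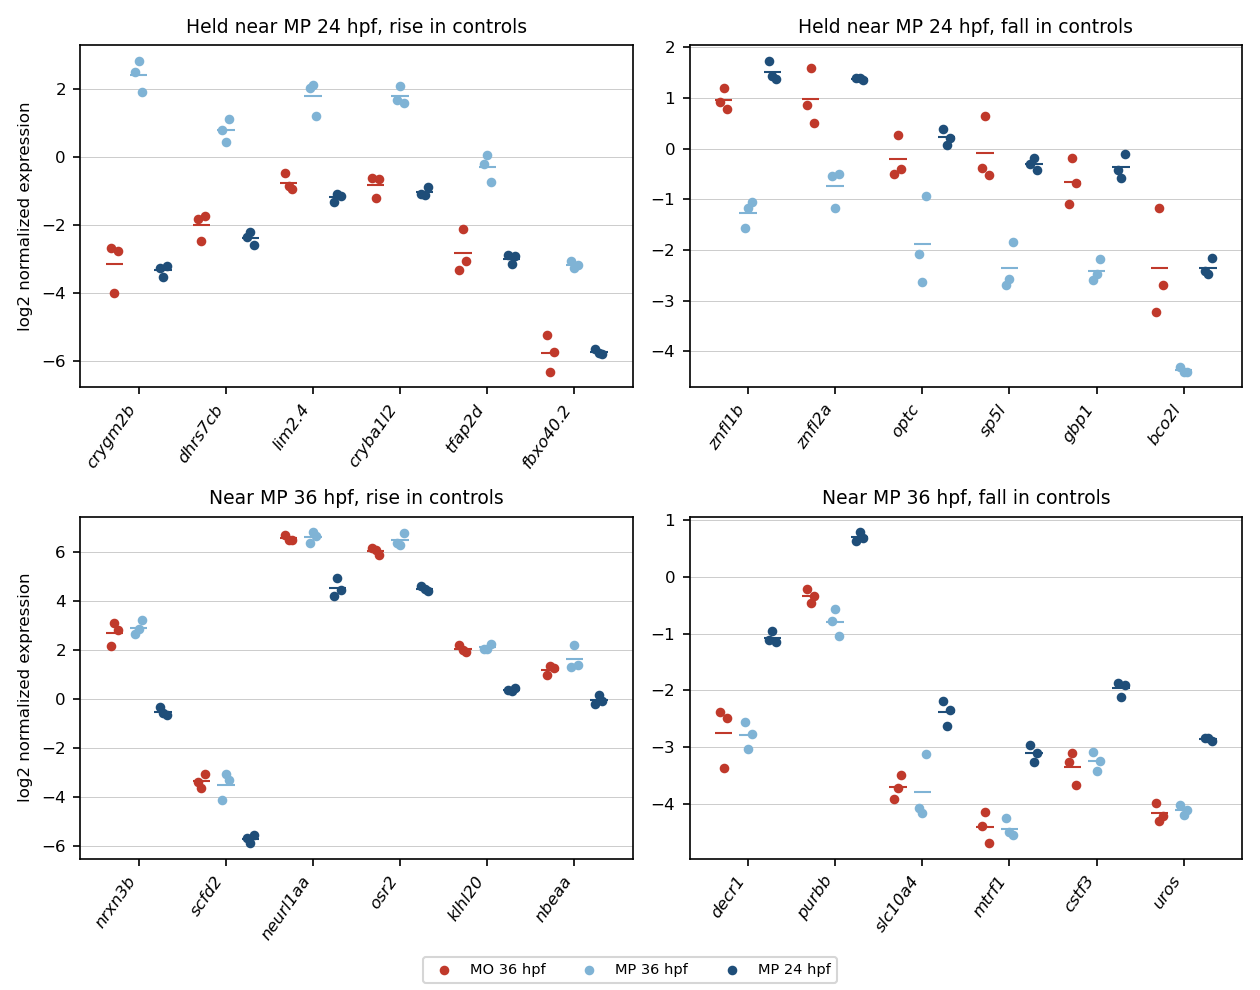
Expression (log2, relative to each array's scaling median) of the named developmental genes on each of 9 arrays, with MO 36 hpf first, then MP 36 hpf and MP 24 hpf, and a bar at each group's mean, in 4 panels by class. In the held panels the MO 36 hpf means lie nearer the MP 24 hpf than the MP 36 hpf means, as for crygm2b, with MO 36 hpf points at -4.00 to -2.67. The MO 36 hpf and MP 24 hpf points do not overlap in lim2.4 and znfl1b. In the other panels the MO 36 hpf means lie nearer the MP 36 hpf means, as for nrxn3b, with points at 2.15 to 3.10. In all panels the class rule largely sets which control mean is nearer.

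The 187 changed genes were only in part developmental. Of the 174 tested in all comparisons, 56 were developmental genes that changed in the same direction as the controls, and 35 were changed at least 2-fold while the controls were within 2-fold between 24 and 36 hpf (0.356% of 9837 genes), 23 of them higher (0.234%) and 12 lower (0.122%). A further 82 met neither rule, and 1 developmental gene, bcl11aa, changed the other way. The shared MP 24 hpf arrays favour the same direction, as said above. Without MO replicate 2, 164 genes in place of 35 were changed at least 2-fold while the controls were within 2-fold. The 3 values of each group did not overlap in any of the 187 genes, against 36.2% of all genes tested. The calls rest on the same values, so this gives them no further support. Of the 187, 33 were also changed between the MO and MP arrays of 36 hpf, against 6.42% of all genes. That comparison shares the 3 MO 36 hpf arrays, which favours joint calls, so the count is no independent support.

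The 15 largest rises included tap2a, irg1l, irf1b, xaf1 and chia.6, which take part in immune defence or cell death. Expression of tap2a, a peptide transporter that loads antigens on MHC class I, was -3.98, -2.59 and -1.51 on the MO 36 hpf arrays, against -9.63, -8.16 and -8.60 on the MP 24 hpf arrays. No MP 24 hpf array read it well above background, and it was at least 28.1-fold higher in the morphants (adjusted p = 0.0252). For such a bound, every array that could not measure the probe takes the larger of 2 numbers, the probe's reading there and the faintest reading that was well above background on that array. Expression of irg1l, a relative of a mitochondrial enzyme gene that mammalian macrophages induce on infection, was -0.08, 0.39 and 2.55 on the MO 36 hpf arrays, against -3.85, -4.12 and -3.46 on the MP 24 hpf arrays (change 4.76, SE 0.63, adjusted p = 0.0309). MO replicate 3 was the highest in tap2a and irg1l, and replicate 1 the lowest. On the MO 24 hpf arrays tap2a was at least 84.7-fold higher than in the same controls, and irg1l changed by 4.84.

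Expression of irf1b, an interferon regulatory factor, was 0.25, 1.39 and 1.84 on the MO 36 hpf arrays, against -2.66, -3.11 and -2.56 on the MP 24 hpf arrays, and -2.70, -2.30 and -1.98 on the MP 36 hpf arrays. The rise of 3.93 (SE 0.40, adjusted p = 0.0252) was 3.82 without MO replicate 2, while the controls of the 2 ages lay within 2-fold of each other. Expression of xaf1, an inhibitor of the anti-apoptotic XIAP protein, was -2.55, -1.86 and -1.30 on the MO 36 hpf arrays, against -5.12, -4.82 and -5.08 on the MP 24 hpf arrays (change 3.10). Expression of chia.6, an acidic chitinase gene, was -2.02, -2.48 and -0.32 on the MO 36 hpf arrays, against -4.41, -4.78 and -4.63 on the MP 24 hpf arrays (change 3.0). For irf1b, xaf1 and chia.6 the MO 24 hpf changes were larger, at 6.18, 5.82 and 5.78. Those changes share the MP 24 hpf arrays with the ones above.

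A second set of large rises also rose with age in the controls. Expression of hbba2, an adult-type beta globin gene, was 6.12, 8.31 and 6.79 on the MO 36 hpf arrays, against 3.41, 2.28 and 3.32 on the MP 24 hpf arrays (change 4.07, SE 0.56, adjusted p = 0.0318), and the controls rose by 2.55. Globin genes are near copies of each other, so the probe may also read other members. Expression of aqp3b, a water and glycerol channel, was -3.29, -0.57 and -1.12 on the MO 36 hpf arrays, against -6.15, -5.79 and -5.96 on the MP 24 hpf arrays (change 4.31), with a rise of 2.70 in the controls. Expression of ghra, a growth hormone receptor, was -0.79, 0.91 and 0.68 on the MO 36 hpf arrays, against -3.25, -3.0 and -3.30 on the MP 24 hpf arrays (change 3.45), with a rise of 2.16 in the controls. In all 3 genes the morphants were above the older controls on average, by 1.29 to 1.60, and none of those differences passed the test. The digestive amylase amy2al2 was at least 6.54-fold higher, with no MP 24 hpf array above background, and the neuropeptide gene pth2 changed by 3.21, with 1 MP 24 hpf array above background. Both, like tap2a, were tested only because the MO 36 hpf arrays read them well above background.

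The other named rises included kpna7, an importin of the oocyte, h1m, a maternal linker histone, 42sp43, which is named for an RNA storage protein of Xenopus oocytes, and eef1a1l3, a translation elongation factor gene. Expression of kpna7 was -1.43, -1.81 and 0.01 on the MO 36 hpf arrays, against -5.25, -5.13 and -4.53 on the MP 24 hpf arrays (change 3.89, SE 0.48, adjusted p = 0.027). Expression of h1m was 0.03, -0.09 and 1.45 on the MO 36 hpf arrays, against -2.65, -2.13 and -2.12 on the MP 24 hpf arrays (change 2.76). The changes of 42sp43 and eef1a1l3 were 3.40 and 2.71. These genes also separated arrays within the control groups. On the MP 36 hpf arrays kpna7 read 2.39, -3.97 and -5.95 and h1m 3.56, -2.10 and -3.25, so MP 36 hpf replicate 1 was above every MO 36 hpf array. Whether the source of that difference has a part in the morphants' rise was not tested.

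**Figure D3:**
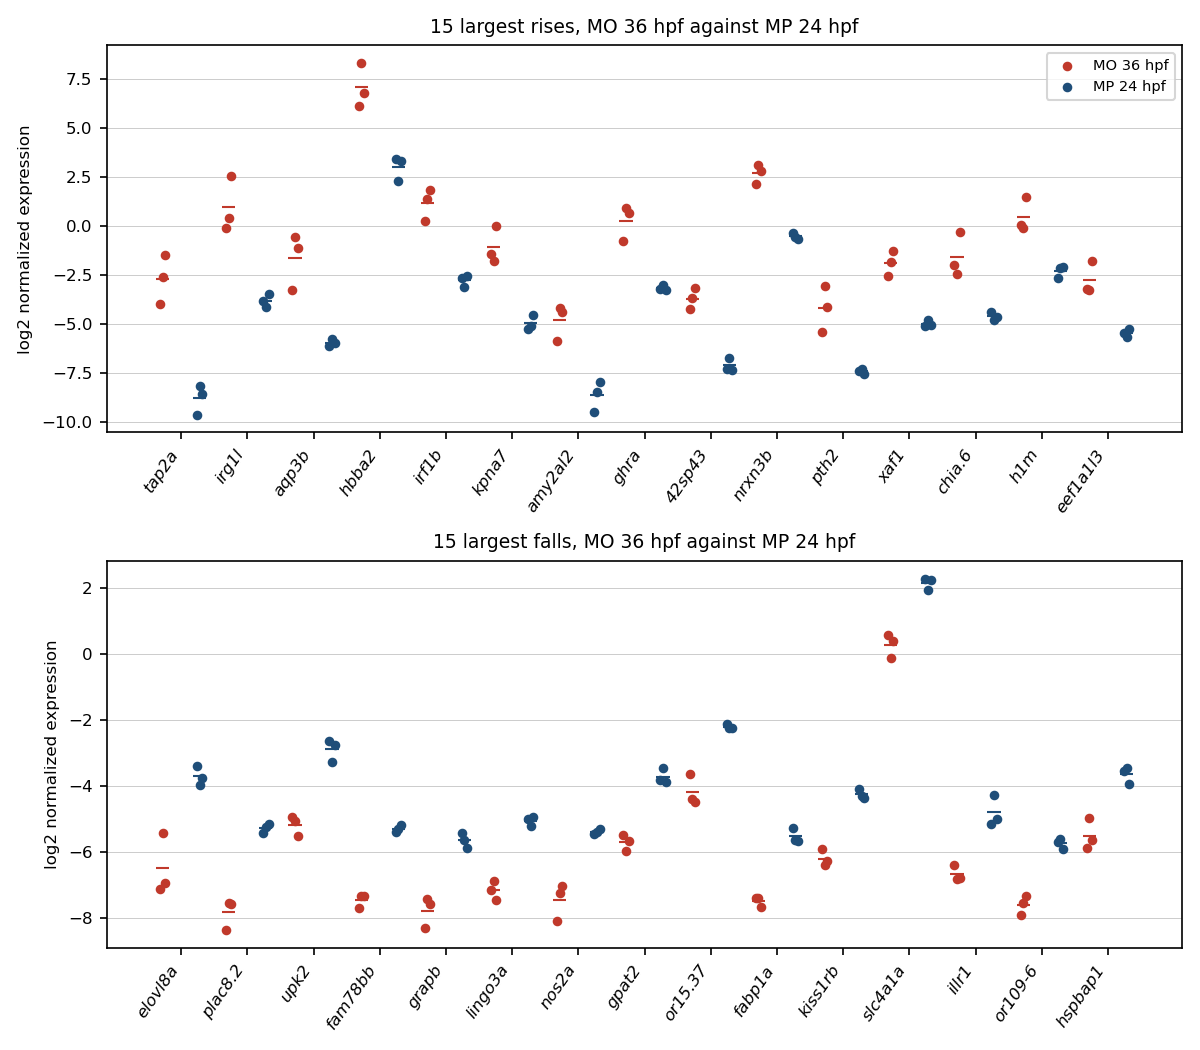
Expression (log2, relative to each array's scaling median) on each MO 36 hpf and MP 24 hpf array for the 15 largest rises and the 15 largest falls among changed genes without overlap, with the MO 36 hpf points drawn first and a bar at each group's mean. Rises run up to tap2a, at -3.98 to -1.51 in MO and -9.63 to -8.16 in MP, and 11 of the 15 falls are of genes not above background on any MO 36 hpf array.

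The largest falls were mostly of dim genes. Of the 67 lower genes, 12 were not above background on any MO 36 hpf array, and for 11 of these 12 normexp background correction turned the sign, while for the 50 above background on all 3 MO 36 hpf arrays it turned none. Of the 15 named falls 11 belong to the dim kind, and the MO 36 hpf arrays had lower probe intensities, as given above. The part of array brightness in these falls was not tested. The largest was that of elovl8a, a fatty acid elongase, with -7.12, -5.43 and -6.93 on the MO 36 hpf arrays, against -3.39, -3.98 and -3.74 on the MP 24 hpf arrays. It was at least 3.80-fold lower in the morphants (adjusted p = 0.0409), and fell by 2.67 in the controls. By the same measure hspbap1 was at least 3.40-fold lower, kiss1rb, a kisspeptin receptor, at least 2.46-fold, illr1 at least 1.78-fold, lingo3a at least 1.5-fold, plac8.2 at least 1.28-fold, fam78bb at least 1.27-fold, nos2a, an inducible nitric oxide synthase, at least 1.19-fold, and fabp1a, a fatty acid-binding protein of liver and gut, at least 1.07-fold. For grapb and the odorant receptor or109-6 no bound above 1 could be given. All 11 were tested because the MP 24 hpf arrays read them well above background. The bounds rest on the scanner's background subtraction and on a faintest reading taken over the whole array, not on a limit of each probe. Under normexp elovl8a alone of these 11 genes kept its sign, so the bounds of the others do not hold under that correction.

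The falls measured above background in the morphants were fewer. Expression of slc4a1a, the band 3 anion exchanger of the red cell membrane, was 0.57, -0.13 and 0.39 on the MO 36 hpf arrays, against 2.29, 1.95 and 2.24 on the MP 24 hpf arrays. It fell by 1.88 (SE 0.22, adjusted p = 0.0257) in the morphants and by 2.33 in the controls, whose 36 hpf arrays read -0.71, -1.29 and 1.49. Expression of or15.37, by its name an odorant receptor, fell by 1.97 in the morphants, with -3.63, -4.39 and -4.49 on the MO 36 hpf arrays and -2.12, -2.24 and -2.25 on the MP 24 hpf arrays, and by 2.15 in the controls. The bladder-type epithelial gene upk2 fell by 2.29, above background on 2 MO 36 hpf arrays, and gpat2, an acyltransferase of lipid synthesis, fell by 1.99, above background on 1.

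Among the 35 genes that changed in the morphants while the controls stayed within 2-fold, besides irf1b, xaf1 and chia.6, the named rises were psmb13a, a proteasome subunit, psme1, a part of its interferon-induced activator, lygl1, a goose-type lysozyme, bbc3, the p53-induced killer protein Puma, and ptgdsb.1, a prostaglandin D synthase. Expression of bbc3 was -0.56, 0.27 and 0.16 on the MO 36 hpf arrays, against -2.12, -1.95 and -1.97 on the MP 24 hpf arrays, and -2.29, -2.48 and -1.82 on the MP 36 hpf arrays. Its rise was 1.97 (SE 0.25, adjusted p = 0.028), and 1.82 without MO replicate 2. Expression of ptgdsb.1 was 2.16, 1.94 and 2.12 on the MO 36 hpf arrays, against -0.06, 0.42 and 0.30 on the MP 24 hpf arrays, and -0.38, 0.54 and -0.33 on the MP 36 hpf arrays (change 1.85, SE 0.18). The MO 36 hpf values were above both control groups in both genes. The changes of psmb13a, lygl1 and psme1 were 2.43, 2.18 and 1.83, against 0.44, 0.27 and 0.18 in the controls.

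The named falls of this class included ascl1b, her13 and heyl. Expression of ascl1b, a proneural transcription factor, was 1.72, 0.83 and 1.23 on the MO 36 hpf arrays, against 2.55, 2.52 and 2.57 on the MP 24 hpf arrays, and 3.18, 3.03 and 2.53 on the MP 36 hpf arrays. It fell by 1.29 (SE 0.23, adjusted p = 0.0449), and by 1.07 without MO replicate 2. Expression of her13, a hairy-related repressor, was -1.70, -2.50 and -1.92 on the MO 36 hpf arrays, against -0.65, -0.66 and -0.49 on the MP 24 hpf arrays, and its fall was 1.44 (SE 0.24, adjusted p = 0.0409). Expression of heyl, a repressor induced by Notch signals, was -4.22, -4.67 and -4.42 on the MO 36 hpf arrays, against -3.03, -2.95 and -3.19 on the MP 24 hpf arrays (change -1.38). The morphants were below the controls of both ages in these 3 genes. The change in the controls was 0.37 for ascl1b, 0.10 for her13 and 0.40 for heyl.

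The other named falls of the class were pcdh2ac, a clustered protocadherin of neurons, setmar, desi1a, luzp2 and lingo3a. Expression of pcdh2ac was -3.21, -3.40 and -3.42 on the MO 36 hpf arrays, against -1.75, -1.72 and -1.69 on the MP 24 hpf arrays, a change of -1.62 (SE 0.19, adjusted p = 0.0257) beside one of -0.41 in the controls. Clustered protocadherins share sequence, so the probe may read other members. The changes of setmar, desi1a and luzp2 were -1.57, -1.34 and -1.34, and that of lingo3a rests on no MO 36 hpf array above background.

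**Figure D4:**
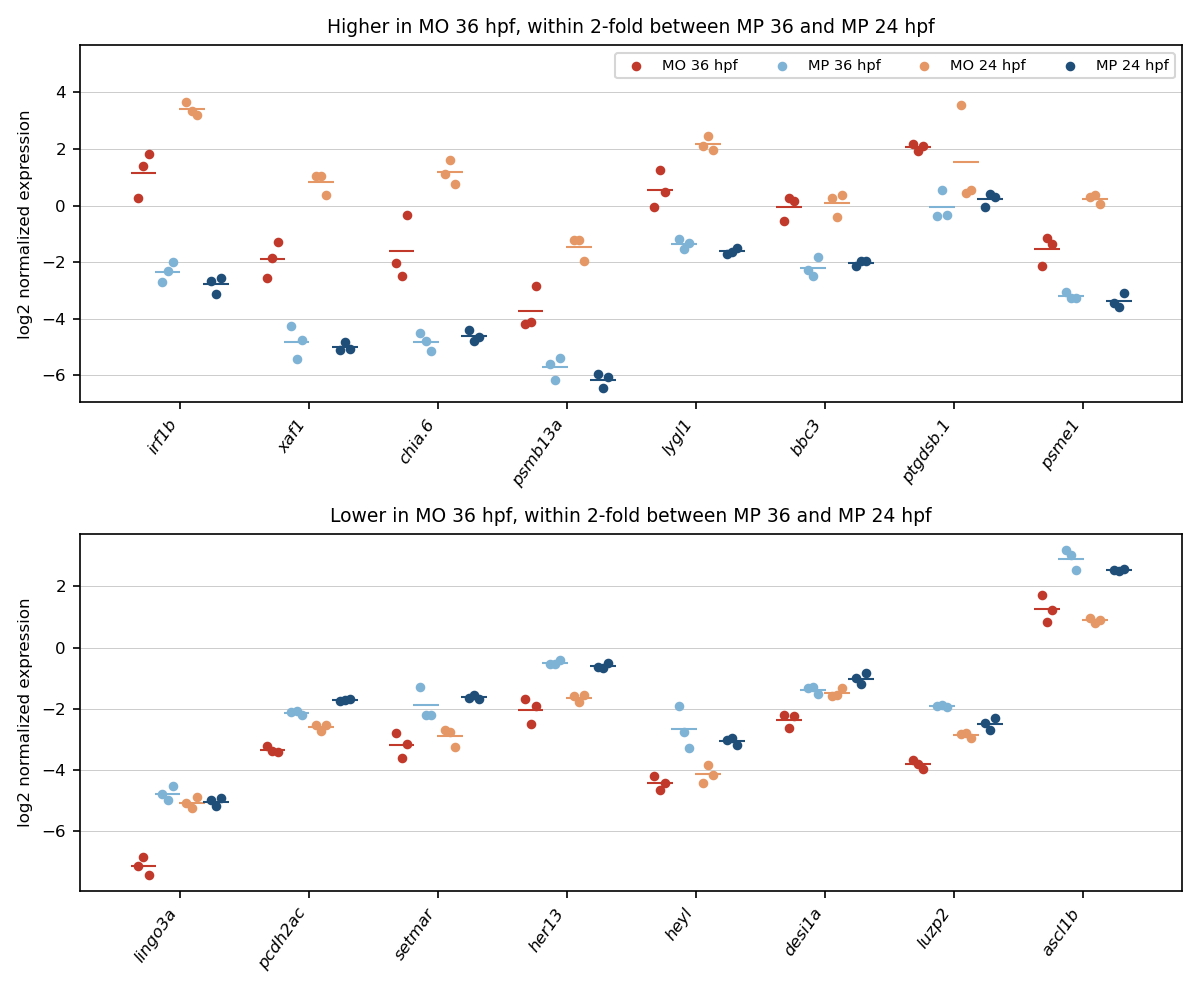
Expression (log2, relative to each array's scaling median) of the 8 rises and 8 falls with the largest change among genes within 2-fold between the MP 36 hpf and MP 24 hpf arrays, with MO 36 hpf points first, then MP 36 hpf, MO 24 hpf and MP 24 hpf, and a bar at each group's mean. The MO 36 hpf points overlap neither group of MP points in any of these genes, as for irf1b at 0.25 to 1.84.

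Groups of genes were then described by lists of their known members, and every count is to be read beside the share of all genes. On all arrays these shares were 1.17% higher and 0.653% lower, and 11% and 11.2% without MO replicate 2. In the controls they were 14.3% and 16.3% with age, and between the MO and MP arrays of 36 hpf 1.95% and 4.47%. At an unadjusted p under 0.05 limma gave 2643 of 10259 genes in the main comparison. The naming rule took 2 members at each end of a list, and cryba1b, actn3a, snap25b, nrxn1a, cdx1a, b2m, fkbp5 and others outside it were chosen after their values were seen. Of 31 lens genes tested none was changed, against 1.82% of all genes, with 7 within 2-fold and a median change of -0.44. At an unadjusted p under 0.05 limma gave 3 of them, 1 higher and 2 lower, and the methods' t-test called none after adjustment. In the controls 31 of 36 lens genes rose (14.3% of all genes), by a median of 2.75, and 29 of 36 were lower in the MO than the MP arrays of 36 hpf (4.47% of all genes). Without MO replicate 2 the median change was 0.03, with 5 higher (11% of all genes), 1 lower (11.2%) and 20 within 2-fold (76.3%). Members differed between the morphant arrays, and cryba1b, a beta-crystallin, was 3.90, -0.06 and 3.18 on the MO 36 hpf arrays, against 3.40, 3.41 and 3.55 on the MP 24 hpf arrays. Lens genes share sequence and their probes may read each other's transcripts. Relative to all genes the median of the list turned from -0.39 to 0.24 with normexp background correction, so no direction is given for it.

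Of 30 fast muscle genes tested, 1 was changed, pvalb1, a parvalbumin that buffers calcium, and 15 were within 2-fold, with a median of -0.22, or 0.04 without MO replicate 2. In the controls 26 of the 30 rose, by a median of 1.58, and 20 were lower in the MO than the MP arrays of 36 hpf. The list's median expression was 4.32, 2.99 and 3.78 on the MO 36 hpf arrays, against 3.92, 3.61 and 3.82 on the MP 24 hpf arrays. Of its 18 developmental genes, 8 were held at the 24 hpf level, against 36.2% of all developmental genes. One was actn3a, an alpha-actinin of the fast sarcomere, with 5.42, 4.2 and 5.13 on the MO 36 hpf arrays, against 4.74, 4.80 and 4.70 on the MP 24 hpf arrays. Replicate 2 was the lowest morphant array there and in the list as a whole. Expression of pvalb1 was 5.29, 4.91 and 5.11 on the MO 36 hpf arrays, against 4.02, 3.69 and 4.17 on the MP 24 hpf arrays, a rise of 1.15 (adjusted p = 0.0400), where the controls rose by 3.32.

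Of 52 genes of neurons and synapses tested, 2 were changed and both rose (1.17% of all genes), 28 were within 2-fold, and the median change was 0.03. With MO replicate 2 left out, 8 rose, 3 fell and 41 were within 2-fold. In the controls 43 of 53 rose, by a median of 1.01. Of 27 developmental genes in the list, 15 were held at the 24 hpf level (36.2% of all developmental genes), among them snap25b, a SNARE protein of transmitter release, at -0.25, -1.08 and -0.41 on the MO 36 hpf arrays, against -0.40, -0.77 and -0.48 on the MP 24 hpf arrays. The 2 that rose were both neurexins, nrxn3b and nrxn1a. Expression of nrxn1a was -2.03, -1.65 and -1.86 on the MO 36 hpf arrays, against -3.65, -4.29 and -3.76 on the MP 24 hpf arrays, a rise of 2.05 (SE 0.25, adjusted p = 0.027), beside 2.99 in the controls. It is named because the count is 2. The proneural genes ascl1a and ascl1b were the only changed members of 30 neural progenitor genes tested on all arrays. Both fell (0.653% of all genes), ascl1a by 0.86 (adjusted p = 0.042, limma). Without MO replicate 2, 2 of the 30 were higher (11% of all genes) and 9 lower (11.2%).

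Tailbud and segmentation genes differed between the morphant arrays. Their median expression was -1.18, 0.07 and -1.05 on the MO 36 hpf arrays, against -1.31, -1.31 and -1.29 on the MP 24 hpf arrays. Expression of tbx6, a T-box factor of the presomitic mesoderm, was -0.20, 2.21 and -0.22 on the MO 36 hpf arrays, against -0.86, -0.97 and -1.19 on the MP 24 hpf arrays, and -3.37, -3.59 and -4.06 on the MP 36 hpf arrays. Only MO replicate 2 was far from the younger controls. Of 24 genes tested, 1 was changed, cdx1a, which rose by 1.25 (adjusted p = 0.0318), and 3 were within 2-fold. Without MO replicate 2 the median was -0.09 and 17 were within 2-fold. In the controls 13 of 24 fell (16.3% of all genes) and 3 rose, with a median of -0.79. Of 10 developmental genes in the list, 0 were held at the 24 hpf level (36.2% of all developmental genes).

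Of 24 targets of the tumour suppressor p53 tested, 5 rose (1.17% of all genes) and none fell, with a median change of 0.81. At an unadjusted p under 0.05 limma gave 13 higher and 0 lower, where it gave 2643 of all 10259 genes in either direction. The methods' t-test called none after adjustment. With the probe of smallest change for each gene, 0 of the 24 were called and the median was 0.40. There were 13 that rose (11% of all genes) and none that fell without MO replicate 2. The 5 were bbc3, phlda3, mdm2, ccng1 and xpc, of which mdm2, ccng1 and xpc are named after their values were seen. Expression of mdm2, the ubiquitin ligase that restrains p53, was 2.70, 3.11 and 3.19 on the MO 36 hpf arrays, against 1.89, 1.97 and 1.82 on the MP 24 hpf arrays, a rise of 1.11 (SE 0.18, adjusted p = 0.0400). Expression of ccng1, a cyclin G induced by p53, was 6.49, 6.98 and 6.65 on the MO 36 hpf arrays, against 5.46, 5.86 and 5.40 on the MP 24 hpf arrays, a rise of 1.13 (SE 0.20, adjusted p = 0.0449). The controls differed by -0.48 and 0.48 between the ages. The list's median relative to all genes stayed above 0 under each scaling, at 0.51 to 0.89. A factor per array drops out of such a relative median, so scalings by a factor could not move it. With scaling to the positive control spots the list's own median was -0.56 with 0 members called, beside a median of -1.43 for all genes.

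Interferon and antigen processing genes included 15 tested members, of which tap2a, irf1b and psme1 rose (1.17% of all genes) and none fell, with a median change of 1.11, or 1.32 without MO replicate 2, when 9 rose (11% of all genes) and 1 fell. Their median in the controls was 0.13, with 1 higher and 1 lower of 14. The member tap2a was tested only because the MO 36 hpf arrays read it well above background. Among the 11 members well above background on all arrays of both groups, 2 rose and the median change was 0.85. At an unadjusted p under 0.05 limma gave 7 members higher and 1 lower in the 36 hpf morphants relative to the 24 hpf controls. Among members that missed the threshold, b2m, the MHC class I light chain, was 0.11, -0.04 and 1.39 on the MO 36 hpf arrays, against -1.10, -1.15 and -1.10 on the MP 24 hpf arrays. Its change was 1.60 (adjusted p = 0.0659), and its values did not overlap. Of 19 genes of inflammation and myeloid cells, 2 rose and none fell, pim1 and fosab, with a median of 0.65, and 10 rose and 1 fell without MO replicate 2. Both lists lay above 0 relative to all genes under each scaling, though scalings by a factor per array could not move a relative median. With scaling to the positive control spots their own medians were -0.27 and -0.72, with 2 and 0 members higher. The median of all genes was then -1.43.

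Of 27 glucocorticoid targets tested, 3 rose (1.17% of all genes) and none fell, with a median of 0.19 and 10 within 2-fold. With MO replicate 2 left out, 6 were higher and 5 lower, 17 were within 2-fold and the median was -0.04, so the list had no direction that held. The 3 were nfkbiaa and nfkbiab, inhibitors of NF-kappaB, and socs3a, an inhibitor of cytokine signalling, of which the last 2 are named because of the small count. Expression of nfkbiaa was 0.67, 1.08 and 1.76 on the MO 36 hpf arrays, against -0.63, -0.68 and -0.59 on the MP 24 hpf arrays (change 1.80, SE 0.27, adjusted p = 0.0347), and the controls differed by 0.20. The classical target fkbp5, a co-chaperone of GR, was -2.51, -3.91 and -2.71 on the MO 36 hpf arrays, against -2.92, -2.59 and -2.72 on the MP 24 hpf arrays, a change of -0.30 with overlapping values, which turned to 0.13 without MO replicate 2. It is given as the target most used as a readout of GR. Of 18 genes of the stress axis and steroid synthesis tested none was changed by limma or by the methods' t-test after adjustment, 3 had an unadjusted p under 0.05, and 8 were within 2-fold. The lowest change was that of pomca, the precursor of ACTH, with -4.69, -7.54 and -5.32 on the MO 36 hpf arrays, against -4.54, -4.19 and -4.58 on the MP 24 hpf arrays. It was -1.41, and -0.57 without MO replicate 2, and passed the test in neither case.

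The list of globin and heme genes, which does not hold the globin gene hbba2 described above as higher, had 2 of 23 changed, slc4a1a and uros, both lower (0.653% of all genes), with a median of -0.49, or -0.63 with 13 lower and 1 higher without MO replicate 2. In the controls 18 of 23 fell and 1 rose, with a median of -1.40. The list lay below 0 relative to all genes under each scaling, at -0.56 to -0.43, though scalings by a factor per array could not move this relative median. Of 12 germline genes 2 rose, 42sp43 and zp2.1, an egg coat protein gene, whose values on the MP 36 hpf arrays were 3.77, -1.81 and -2.87, so MP 36 hpf replicate 1 was again the highest of its group.

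Most members of several large groups lay within 2-fold of the 24 hpf controls, as did most of all genes. Such counts depend on the width of the interval as well as on the size of the change. Differences from the share of all genes were not tested, and of the groups listed next the hox genes lay nearest to that share. Within 2-fold were 40 of 45 ribosome biogenesis genes, 67 of 75 genes of the respiratory chain and ATP synthase, 37 of 45 cell cycle genes, 34 of 43 proteasome genes, 32 of 46 hox genes and 23 of 29 genes of BMP signalling, against 62.1% of all genes, and psmb13a was the only changed member of these lists on all arrays. On the arrays without MO replicate 2, when 11% of all genes were higher and 11.2% lower, 12 ribosome biogenesis genes were higher and 0 lower. For the proteasome these counts were 6 and 2, for hox genes 4 and 6, for the cell cycle 4 and 3, for the respiratory chain 4 and 4, and for BMP signalling 3 and 0. The cytosolic ribosomal proteins differed, with 32 of 78 within 2-fold, a median of 0.63 and 1 changed, rpl9. Their median expression was 7.71, 8.79 and 7.84 on the MO 36 hpf arrays, against 7.32, 7.48 and 7.52 on the MP 24 hpf arrays. Replicate 2 was the highest, and without it the median change was 0.33. Relative to all genes their median was 0.05 with quantile normalization and 0.74 in the authors' table, so its size depends on the scaling.

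**Figure D5:**
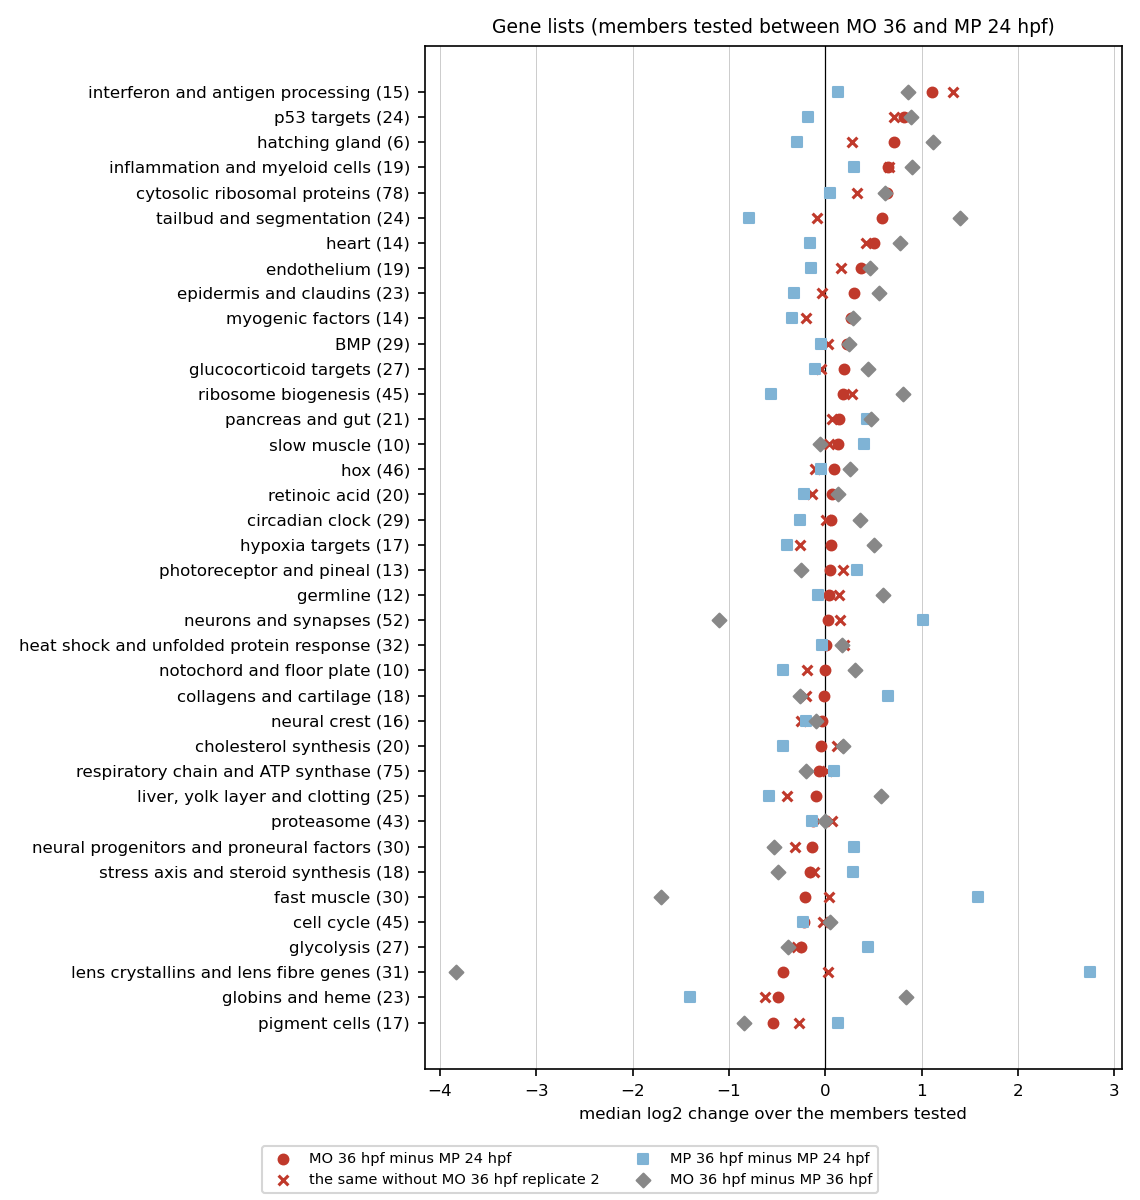
Median log2 change of each gene list in 3 comparisons, with MO 36 hpf minus MP 24 hpf on all arrays and without MO 36 hpf replicate 2, MO 36 hpf minus MP 36 hpf, and MP 36 hpf minus MP 24 hpf, and the number of members tested in the first of these beside each name. The first lies at -0.44 for lens genes, -0.22 for fast muscle and 0.03 for neurons, where the controls lie at 2.75, 1.58 and 1.01. The lens median is 0.03 without MO 36 hpf replicate 2, and its sign depends on the background correction. Interferon (1.11) and p53 target genes (0.81) lie to the right of 0.

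On all arrays the remaining lists had at most 2 changed members each. The heart list rose in 2 of 14 genes, myh7, a myosin heavy chain that is also the 1 changed member of 10 slow muscle genes, and atp2a2a. The heat shock list rose in 1 of 32, ddit3, a stress-induced transcription factor, by 1.35 (adjusted p = 0.0368), and its member hsp70l was highest on MO replicate 2. Without that array 8 heat shock genes rose and 4 fell, and 5 of the 14 heart genes rose and 1 fell. Other single changes were krt94, a keratin, by 1.21, cry1b, a clock repressor, by 1.45, fabp10a, a liver fatty acid-binding protein, by 2.43, flt1, a receptor of vascular endothelial growth factor, by -1.55, crabp1a, a retinoic acid-binding protein, by -1.73, and egln1b, an oxygen-sensing hydroxylase, by -0.99. Of these flt1 turned its sign under normexp. The lists of these single changes had more changed members without MO replicate 2 (11% of all genes higher and 11.2% lower). Higher and lower were then 9 and 2 of 29 clock genes, and 3 and 7 of 25 liver, yolk layer and clotting genes. The counts were 2 and 1 of 23 epidermis genes, 1 and 2 of 19 endothelium genes, 2 and 2 of 20 retinoic acid genes, and 0 and 4 of 17 hypoxia targets. Pigment, photoreceptor, pancreas, neural crest, notochord, hatching gland, cartilage, cholesterol, glycolysis and myogenic factor genes had no changed member. In all, the 17 lists with none held 451 tested members, of which limma gave 46 higher and 39 lower at an unadjusted p under 0.05 and the methods' t-test none after adjustment. By limma 48 of 449 members were higher and 29 lower without MO replicate 2. Among the members on all arrays were 4 of 17 pigment genes and 8 of 10 notochord genes within 2-fold.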

How the data were processed

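RNA of 3 pools of whole embryos per group was measured on one-color Agilent zebrafish arrays. The intensities deposited by the authors had the background of each spot subtracted by the scanner software (Feature Extraction 10.5.1.1, per the submitters' processing notes) and no scaling between arrays. The authors' table of processed intensities, which their methods scale to positive control genes, served as an alternative. Here intensities were raised to at least 0.05, spots marked as outliers were dropped, and every array was scaled by its median over 19098 probes that exceeded 50 on each of the 12 arrays. Log2 values of repeated spots were averaged. Of 43603 probes, 16770 matched a symbol in a RefSeq gene table by accession, and 15772 of them stand for 10915 named genes. For 3907 genes with several probes the brightest was taken. Tests were restricted to genes measured well above background on all 3 arrays of a group, with at least 2 values in both. Pairs of groups were fitted with limma 3.58.1 in R 4.3.3 (lmFit, eBayes with trend, two-sided, Benjamini-Hochberg threshold 0.05). The 90% interval comes from the same fit. On simulated arrays with a log2 change of 2 in size in 200 genes, the fit recovered 154 and made 9 false calls. The simulated noise was independent between genes and equal in both groups. No simulated array stood apart as MO 36 hpf replicate 2 did, so the dependence of the calls on single arrays was not simulated. Figures were drawn in Python 3.11.15 with matplotlib 3.10.9.

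Genes named are nr3c1, the 15 largest rises and the 15 largest falls among changed genes without overlap, 6 rising and 6 falling genes of each developmental class by their change in the controls, the 8 largest rises and 8 largest falls among genes within 2-fold in the controls, and the 2 highest and 2 lowest members of each list. The comparison, classes and lists were chosen with earlier results of these data known. Alternatives were other scalings, background correction, filters, probes, tests and blocks, leaving out single arrays, and the deposited table of processed values. Groups follow the sample titles, and the title and description of MO 36 hpf replicate 3 carry different numbers. The labels speak of independent replicates, and p-values measure the spread between these pools. With 3 arrays a group, precision is limited by their number.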

Additional observations from a re-analysis of the deposited data

How the results depend on the processing

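Over 206 named genes the alternatives turned the sign of 20 changed values, made 525 miss the threshold and 190 pass it, moved 163 that were not called by more than the SD of replicates or to a call of the other sign, and left 2975 as they were called, those without a call within that SD. Scaling to the positive control spots gave 894 changed genes in MO 36 hpf against MP 24 hpf, 147 in MP 36 hpf against MP 24 hpf and 153 in MO 36 hpf against MP 36 hpf, with 0 genes within 2-fold, 0 held, 0 at the older level and 0 changed beside level controls. It turned ddit3 to -0.026, krt94 to -0.16, myh7 to -0.22, nbeaa to -0.14 and pvalb1 to -0.23, with the median of all genes at -1.43. With no filter on dim probes the counts were 543 changed, 56 at the older level and 73 beside level controls. With the probe of smallest change they were 31, 4 and 6, and klhl20 read -0.092, nbeaa -0.10, nrxn3b -0.21 and scfd2 -0.76. With every probe counted they were 1505, 9085 and 1217 in the 3 comparisons, in the order above. The methods' t-test after Benjamini-Hochberg adjustment gave 4, 1849 and 2 on log2 values and 7, 1639 and 4 on linear values, with 2300 and 2237 genes before adjustment in the main comparison. One fit of all 12 arrays gave 1571 changed genes, 1876 between the groups of 36 hpf, 137 at the older level and 155 beside level controls. The floor set after scaling gave 253 changed genes between the groups of 36 hpf and 19 beside level controls. Normexp turned fabp1a to 0.44, fam78bb to 0.50, flt1 to 0.16, grapb to 0.54, hspbap1 to 0.027, illr1 to 0.24, kiss1rb to 0.11, lingo3a to 0.45, nos2a to 0.55, or109-6 to 0.56 and plac8.2 to 0.37. Same-numbered MO 36 hpf and MP 24 hpf arrays did not deviate together (correlations -0.06, -0.25 and -0.11), so the numbers were not read as pairs. A replicate block gave 0 changed genes (2085 at an unadjusted p under 0.05), 0 at the older level, 0 beside level controls, and 234 between the groups of 36 hpf, where the slide as a block gave 151. The slide could not be used as a block elsewhere, since no slide holds both groups. With 1 array left out at a time there were 0 to 2274 changed genes, 5118 to 7807 within 2-fold, 1792 to 3125 between the controls' ages, 19 to 1125 between the groups of 36 hpf, 237 to 490 held, 0 to 177 at the older level and 0 to 208 beside level controls. The cause of these shifts was not tested. The other alternatives kept each count within 1.5 times its main value. Signal over background limits the falls of dim genes, and 3 arrays a group limit every interval.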
